A study of Mus musculus with 10 samples.

Results

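The 47 genes described here encode enzymes of families that write, remove or oxidise marks on DNA and histones. Some members act mainly elsewhere, such as the mitochondrial Sirt3, Sirt4 and Sirt5. They were taken by gene symbol from the 32531 genes listed in each count table, and all 47 were found, with at least 1 count in every one of the 10 libraries. They comprise 3 DNA methyltransferases, 3 TET dioxygenases, 11 zinc-dependent histone deacetylases (HDACs), 7 sirtuins, 5 histone acetyltransferases, 5 methyltransferases of lysine 9 of histone H3 (H3K9), 2 of lysine 27 (H3K27) and 11 histone demethylases. RNA came from whole striatum of adult mice of the line Chat-TRAP DW167 (Chat-EGFP/Rpl10a), whose EGFP joined to the ribosomal protein Rpl10a tags ribosomes of cholinergic neurons. Tagged polysomes were immunopurified from mice with cocaine self-administration, from yoked controls and from mice with saline self-administration, with 3 libraries in each group, and 1 input library held total RNA of saline animals. Pooling of animals and the treatment of the yoked animals are not stated, so p-values measure the spread between these libraries, which may be technical.

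DNA methyltransferases add methyl groups to cytosines, mostly in CG pairs, and TET dioxygenases oxidise those groups as a step towards their removal. Acetyltransferases place acetyl groups on histone tails, which goes with open chromatin, and deacetylases and sirtuins take them off. Methylation of H3K9 and H3K27 goes with silenced genes, and lysine demethylases reverse such marks. In the mouse nucleus accumbens, Hdac5, Ehmt2 (also called G9a), Dnmt3a and Tet1 have each been studied for their part in behavioural responses to cocaine.

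Gene counts ranged from 24526765 to 75220922 in immunopurified libraries, and the input had 40912230. The purification held for its defining markers: Chat, which makes acetylcholine, averaged 623 ± 65.7 CPM (counts scaled to library size) in cocaine, 570.1 ± 33.7 in yoked and 550.2 ± 65.1 in saline libraries (SD, n = 3 each), against 10.1 CPM in the input. The median log2 ratio of immunopurified to input RNA was 5.54 ± 0.15 over 10 cholinergic markers and between −2.33 and −4.61 for 8 lists of other cell types (SD over 3 saline libraries). By mean summed CPM some lists fell less. Other striatal interneurons were at 1117.5 in saline libraries against 1380.2 in the input, oligodendrocyte precursors at 71.9 against 128.6, and endothelial and mural cells at 16.2 against 25.8. The remaining lists fell further, such as spiny projection neurons, at 972 against 7482.7. Cocaine and yoked libraries were run in lane 4, saline libraries in lane 3 and the input in lane 5. Lane and group thus cannot be told apart wherever saline or input libraries enter a comparison. The 3 libraries numbered 2 stood apart: the highest or the lowest of the 9 immunopurified libraries was a number 2 for 40 of the 47 enzymes, and for 89.8% of the 14989 genes tested. Fold changes and medians by role between treatments are therefore given with and without them.

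Ribosome-bound RNA of saline animals was first set against the input. This asks how the enzymes' ribosome-bound transcripts in cholinergic neurons stand relative to total RNA of whole striatum. A gene was counted as higher or lower where its CPM differed at least 2-fold from the input in the same direction in all 3 saline libraries. By that rule 5 of the 47 enzymes were higher (background 12.2% of 15888 genes measured, those with at least 20 counts) and 10 were lower (background 23.1%). The enzymes' shares, 10.6% and 21.3%, were near those backgrounds. The median log2 ratio of the enzymes was −0.56 ± 0.09, against −0.17 ± 0.02 for all genes (SD of the 3 library medians). A single input library leaves these ratios without a p-value. A lower ratio in such RNA cannot tell fewer contributing cells from less RNA per cell. Each ratio also carries the difference between ribosome-bound and total RNA, so a low ratio need not mean low expression in cholinergic neurons. Reads outside annotated genes made up 15.2% in the input and 7.56%, 9.39% and 7.48% in saline libraries 1 to 3. The part of this difference in the ratios was not tested.

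Class IIa histone deacetylases, which shuttle between cytoplasm and nucleus and are controlled by neuronal calcium signalling, held the 2 highest ratios of all members. Hdac9 (chromosome 12, 34047580 to 34917095, mm10) measured 329, 346 and 331 CPM in saline libraries 1 to 3, against 57.4 CPM in the input (95% counting interval 55.1 to 59.8). Its mean log2 ratio was 2.55 ± 0.04 (SD, n = 3), 5.84-fold, and the 3 libraries lay close together. Hdac5 (chromosome 11, 102195747 to 102230172) measured 255, 249.6 and 293 CPM in the saline libraries, against 53.2 CPM in the input (51.0 to 55.4). The ratio was 2.32 ± 0.12, and both genes stayed at least 2-fold above the input in all 6 cocaine and yoked libraries as well, with log2 ratios from 2.10 to 3.001 for Hdac9 and from 2.31 to 3.13 for Hdac5. The other class IIa members did not share this. Hdac4 measured 31.9 ± 4.60 CPM in saline libraries, against 36.1 CPM in the input (log2 ratio −0.19 ± 0.21). Hdac7, listed at 7.21 CPM in the input, measured 3.24, 0.127 and 2.52 CPM in saline libraries 1 to 3. Library 2 held 4 counts of it, which set the log2 ratio of −2.83 ± 2.60; without that library it was −1.34.

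Promoter sequence is shown for the pair with the highest ratios, Hdac9 and Hdac5, and for Tet2, because CG pairs are the substrate of the DNA-modifying members and these 3 genes differ widely in them. RefSeq promoter windows (GRCm38.p6, 250 bases before to 50 after a start site) were found for 39 of the 47 genes, 59 windows in all. Each runs 5′ to 3′ on the gene's strand, as in the RefSeq table, and capitals mark each CG pair, searched as CG, which reads the same on both strands.
Tet2, chr3:133544341-133544640, minus strand: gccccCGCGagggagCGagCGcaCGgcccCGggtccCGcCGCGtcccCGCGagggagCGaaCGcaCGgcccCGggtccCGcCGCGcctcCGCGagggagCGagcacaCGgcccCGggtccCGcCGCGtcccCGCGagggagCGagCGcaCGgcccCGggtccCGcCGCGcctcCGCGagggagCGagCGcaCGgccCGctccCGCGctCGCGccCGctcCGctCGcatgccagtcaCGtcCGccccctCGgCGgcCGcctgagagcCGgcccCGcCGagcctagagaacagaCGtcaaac
Hdac5, chr11:102230123-102230422, minus strand: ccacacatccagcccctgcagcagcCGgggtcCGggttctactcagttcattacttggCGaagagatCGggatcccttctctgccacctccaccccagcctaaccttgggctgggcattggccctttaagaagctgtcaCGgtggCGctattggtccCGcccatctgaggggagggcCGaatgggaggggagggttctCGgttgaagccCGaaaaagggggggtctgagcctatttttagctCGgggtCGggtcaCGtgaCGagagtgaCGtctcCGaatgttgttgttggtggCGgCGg
Hdac9, chr12:34917046-34917345, minus strand: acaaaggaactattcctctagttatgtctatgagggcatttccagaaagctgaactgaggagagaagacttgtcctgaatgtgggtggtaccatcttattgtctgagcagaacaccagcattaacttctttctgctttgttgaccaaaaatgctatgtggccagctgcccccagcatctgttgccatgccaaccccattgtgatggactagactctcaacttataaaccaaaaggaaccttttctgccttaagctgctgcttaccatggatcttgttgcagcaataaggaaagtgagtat
Hdac9, chr12:34528840-34529139, minus strand: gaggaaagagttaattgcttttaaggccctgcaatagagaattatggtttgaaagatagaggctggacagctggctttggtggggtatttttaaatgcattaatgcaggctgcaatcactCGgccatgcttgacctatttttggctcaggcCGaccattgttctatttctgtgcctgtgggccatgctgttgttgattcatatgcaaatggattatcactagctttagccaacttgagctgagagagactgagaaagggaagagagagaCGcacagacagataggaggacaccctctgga
The Tet2 window held 57 CG pairs, the Hdac5 window 18 and the Hdac9 windows 0 and 3. Among all 32851 windows of the same length, 31.4% held 3 or fewer and 0.152% held 57 or more. The member windows had a median of 22 CG pairs, with a range from 0 to 57, and all windows a median of 7. Taking the richest window of each gene, the median was 28 for the 39 enzymes and 8 for all 27025 genes. These counts describe sequence; methylation was not measured.

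The TET dioxygenases were all lower than the input. Tet1 measured 30.5, 24.0 and 17.3 CPM in saline libraries 1 to 3, against 101 CPM in the input, with a log2 ratio of −2.12 ± 0.41. Tet2 (chromosome 3, 133463677 to 133545136) measured 38.7, 33.5 and 27.6 CPM, against 129 CPM in the input, with a ratio of −1.97 ± 0.24. Tet3 measured 56.4, 46.7 and 39.9 CPM, against 135 CPM in the input, with a ratio of −1.51 ± 0.25. No saline library reached the input for any of the 3. In the other 6 libraries the log2 ratio ran from −2.17 to −1.53 for Tet1, from −2.29 to −0.80 for Tet2 and from −1.98 to −0.22 for Tet3.

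Of the DNA methyltransferases, Dnmt3a, which sets new methylation and is the main such enzyme of adult neurons, measured 59.8, 64.0 and 47.2 CPM in saline libraries, against 128 CPM in the input (log2 ratio −1.18 ± 0.23). Dnmt1, the maintenance enzyme, measured 19.2, 14.0 and 18.5 CPM, against 24.2 CPM in the input, with a ratio of −0.50 ± 0.25. Dnmt3b, the second enzyme for new methylation, is scarce here: it had between 1 and 71 counts in an immunopurified library and 34 in the input, and its ratio of −0.61 ± 1.78 did not hold one direction across the saline libraries.

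Sirtuins, which need NAD+ to remove acetyl and other acyl groups, were divided. Sirt3, a mitochondrial deacylase, measured 67.0, 67.4 and 69.8 CPM in saline libraries, against 22.5 CPM in the input, with a log2 ratio of 1.60 ± 0.03. It was at least 2-fold above the input in all 9 immunopurified libraries, as were Hdac9 and Hdac5 and no other enzyme of the set (3 of 47, background 8.65%). The end of Sirt3 overlaps its neighbour Ric8a by 69 bases, where reads may not be told apart. Sirt6, a nuclear sirtuin of DNA repair and metabolism, measured 13.7, 16.2 and 14.5 CPM, against 5.74 CPM in the input (ratio 1.36 ± 0.12), but lay at the input's level in yoked library 2, at 5.47 CPM. Sirt1, a nuclear deacetylase, measured 9.06, 8.78 and 9.50 CPM, against 25.4 CPM in the input, with a ratio of −1.48 ± 0.06. Sirt2, a mainly cytoplasmic enzyme that is abundant in myelin, had a ratio of 0.60 ± 0.11. The summed CPM of 6 oligodendrocyte markers was 214 to 466 in saline libraries, against 2630.1 in the input. The part of oligodendrocyte RNA in the Sirt2 ratio was not tested. Sirt4 and Sirt5, both mitochondrial, had ratios of −0.0046 and 0.49, and the nucleolar Sirt7 one of −1.37 ± 0.47.

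Among the acetyltransferases, Kat5 (also called Tip60), the catalytic subunit of the NuA4 complex, measured 66.5, 70.2 and 72.7 CPM in saline libraries, against 28.4 CPM in the input (log2 ratio 1.30 ± 0.07). The coactivators Crebbp (CBP) and Ep300 (p300), which bind the activity-dependent factor CREB, pointed the other way. Crebbp measured 99.0, 121 and 103 CPM, against 221 CPM in the input (ratio −1.04 ± 0.15), and Ep300 had a ratio of −0.98 ± 0.22. Kat2b (PCAF) had a ratio of −1.34 ± 0.32 and its paralog Kat2a (GCN5) one of −0.05 ± 0.06, at the level of the input.

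Histone methyltransferases and demethylases lay mostly below the input. Ezh2, the H3K27 methyltransferase of dividing cells, measured 2.93, 5.505 and 1.78 CPM in saline libraries, against 21.0 CPM in the input, with a log2 ratio of −2.78 ± 0.82. Ezh1, its counterpart in mature cells, measured 72.0, 43.4 and 56.7 CPM, against 65.0 CPM in the input, with a ratio of −0.21 ± 0.36. Of the H3K9 enzymes, Suv39h1 was above the input in all 3 libraries (ratio 0.70 ± 0.08), and Setdb1, Ehmt1, Ehmt2 and Suv39h2 were below it in all 3, with ratios from −1.62 to −0.37. Of the 11 demethylases, 10 were below the input in all 3 saline libraries; over the whole set 28 enzymes were below it in all 3 (background 44.9%) and 12 above it (background 35.8%). Kdm3a, an H3K9 demethylase, was lowest among them, at 23.0, 13.8 and 13.9 CPM, against 82.2 CPM in the input (ratio −2.32 ± 0.42). The H3K4 demethylase Kdm5a (−1.15 ± 0.05) and the H3K9 demethylase Kdm4c (−1.38 ± 0.29) were also at least 2-fold lower in each library, and Kdm2a, the most counted demethylase, had a ratio of −0.31 ± 0.28. Kdm3a, Kdm5a, Kdm4c, Ezh2, Tet1 and Hdac7 were at least 2-fold below the input in all 9 immunopurified libraries (6 of 47, background 16.4%). Kdm1a (also called LSD1) was the exception, at 0.44 ± 0.26.

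**Figure D1:**
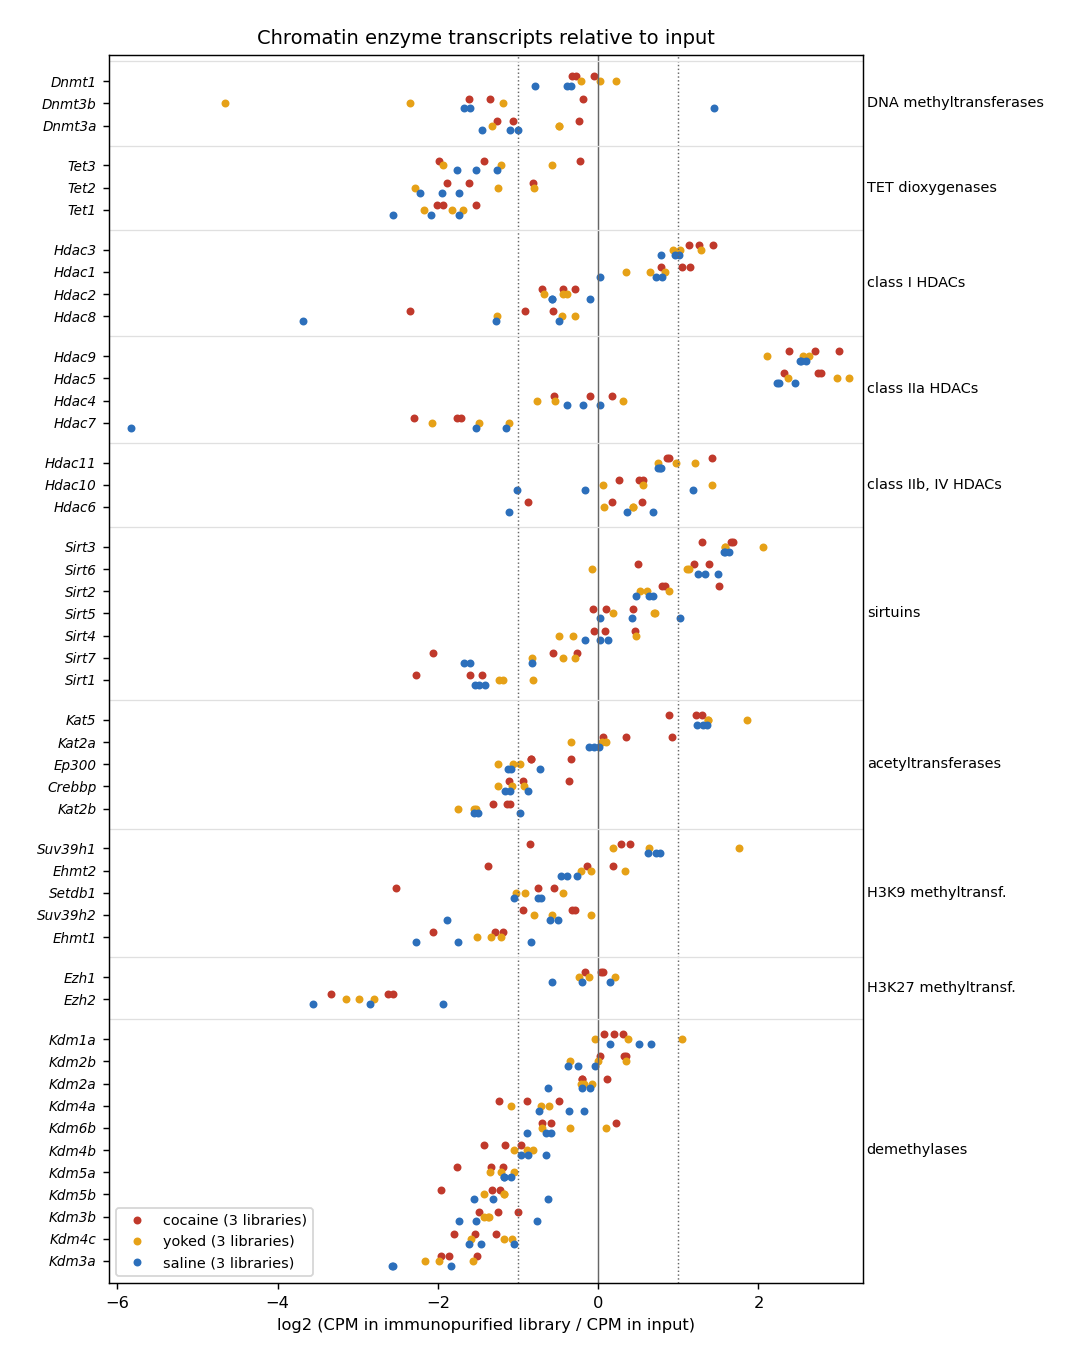
Log2 of CPM in each of 9 immunopurified libraries over CPM in the single input library (x axis) for the 47 enzymes (y axis, grouped by role); each point is a library, the solid line marks the input's level and dotted lines a 2-fold difference. Hdac9, Hdac5 and Sirt3 lie right of the upper dotted line in all 9 libraries, and the 3 TET genes lie left of the solid line in all 9.

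Class I deacetylases, the nuclear enzymes of the large corepressor complexes, sat closer to the input. Hdac3 measured 62.3, 53.1 and 59.95 CPM in saline libraries, against 30.8 CPM in the input (log2 ratio 0.92 ± 0.12), which fell short of 2-fold in library 2 and library 3. Hdac2 measured 89.5, 64.4 and 64.9 CPM, against 96.4 CPM in the input (−0.42 ± 0.27). Hdac1 (0.51 ± 0.43) and Hdac8 (−1.81 ± 1.66) were listed at 4.06 and 5.70 CPM in the input. Hdac11, the single class IV enzyme, measured 145, 148 and 147 CPM, against 86.1 CPM in the input (0.77 ± 0.02), and the class IIb members Hdac6 and Hdac10 had mean ratios near 0 and differed in direction between libraries.

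Scaling bears on these ratios. With libraries scaled by the trimmed mean of M-values (TMM), the median of all genes moved from −0.17 to −0.063, a shift of over 0.1, and that of the enzymes to −0.45. Relative to the median of all genes the enzymes' median was −0.39, and 6 rather than 10 were at least 2-fold lower, while the count higher was again 5. This shift also moves the calls of all genes, so the backgrounds given earlier do not apply to these counts. An edgeR fit that assumes the input to vary like the other libraries called 6 enzymes higher (background 15.3% of 17809 genes) and 14 lower (background 10.7%). The share lower was thus above its background in this fit, whereas it was near it by the 2-fold rule. A call by p depends on counts, which were not matched between the enzymes and all genes. This share can thus not be read as particular to the enzymes. Sirt6, Tet3 and Hdac7, counted by the 2-fold rule, were not called in this fit (edgeR adjusted p = 0.0547, 0.0546 and 0.223). The directions given above for the class IIa genes Hdac9 and Hdac5 and for the TET genes were the same with TMM and relative to the median of all genes.

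Cocaine against saline self-administration asks which of these transcripts differ after taking the drug. No enzyme passed the test: the quasi-likelihood test of edgeR called 0 of 47 at a Benjamini-Hochberg adjusted p under 0.05 (background 0% of 14989 genes, and smallest adjusted p = 0.850 among the enzymes). DESeq2 and limma voom with quality weights also called 0, of the enzymes and of all genes. At an unadjusted p under 0.05 there were 3 (background 5.28%), all higher after cocaine (background 2.76% higher, 2.52% lower): Kat2a, Sirt2 and Hdac3. The 5 enzymes with the smallest p are described with their values although none passed; their adjusted p in edgeR was 0.850.

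Kat2a (chromosome 11, 100704746 to 100712485), the acetyltransferase of the SAGA complex, measured 71.0, 106 and 58.3 CPM in cocaine libraries 1 to 3, against 54.0, 51.9 and 56.2 CPM in saline libraries. The groups did not overlap, and library 2 held the widest gap. Its log2 fold change was 0.57 ± 0.23 (SE; 95% interval 0.07 to 1.06; adjusted p = 0.850, edgeR) and 0.22 without the number 2 libraries. Sirt2 measured 189, 307 and 193 CPM in cocaine libraries, against 167, 150.1 and 174 CPM in saline libraries, again without overlap and with library 2 far above the rest. Its fold change was 0.51 ± 0.21 and 0.15 without number 2. The 6 oligodendrocyte markers summed to 512, 284 and 372 CPM in the cocaine libraries, against 466, 214 and 239.9 CPM in the saline libraries. They were higher with cocaine in each same-numbered pair, and their part in the Sirt2 result was not tested. Hdac3, the catalytic subunit of the NCoR and SMRT corepressor complexes, measured 73.5, 83.5 and 67.8 CPM in cocaine libraries, against 62.3, 53.1 and 59.95 CPM in saline libraries. Its fold change was 0.38 ± 0.17 and 0.20 without number 2.

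Kdm3a measured 28.9, 22.7 and 21.2 CPM in cocaine libraries, against 23.0, 13.8 and 13.9 CPM in saline libraries, with overlap at saline library 1. Its log2 fold change was 0.54 ± 0.26, and 0.43 without number 2. Tet2 measured 42.3, 34.8 and 73.3 CPM in cocaine libraries, against 38.7, 33.5 and 27.6 CPM in saline libraries, and cocaine library 3 carried most of the difference. Its fold change was 0.60 ± 0.32 with all libraries, 0.80 without number 2 and, at the lowest of the fits that left out 1 library, 0.25.

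The groups did not overlap for 8 enzymes (background 10.3%). Of these 6 were higher after cocaine (background 4.88%), namely Dnmt1, Hdac3, Hdac11, Sirt2, Kat2a and the H3K36 demethylase Kdm2b. Suv39h1 and Kdm5a were lower (background 5.4%). Suv39h1 measured 18.3, 7.72 and 16.9 CPM in cocaine libraries, against 21.3, 23.7 and 23.0 CPM in saline libraries, with a log2 fold change of −0.67 ± 0.36, or −0.35 without number 2. In all, 29 of 47 fold changes were above 0 (background 50.6%), with a median of 0.16 for the enzymes and 0.0049 for all genes. Without cocaine library 3 that median was 0.052, and without saline library 2 it was 0.072. By role the highest medians were 0.48 for TET genes (3 of 3 above 0) and 0.30 for acetyltransferases (4 of 5). The lowest were −0.03 for sirtuins (3 of 7) and −0.15 for demethylases (5 of 11). Without the number 2 libraries these medians were 0.78 (3 of 3), 0.06 (3 of 5), 0.05 (4 of 7) and −0.06 (5 of 11). The TET genes did not move one way in every pair, since 1 of 3 was above 0 in the pair numbered 1, against 3 of 3 in the pair numbered 3. Half-widths of the 95% intervals had a median of 0.57 on the log2 scale, so differences smaller than that were mostly not detectable with 3 libraries a group. These intervals are not adjusted for the 14989 genes tested, so differences above 0.57 could also go uncalled. Tet2, at 0.60, had an adjusted p of 0.850 in edgeR.

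**Figure D2:**
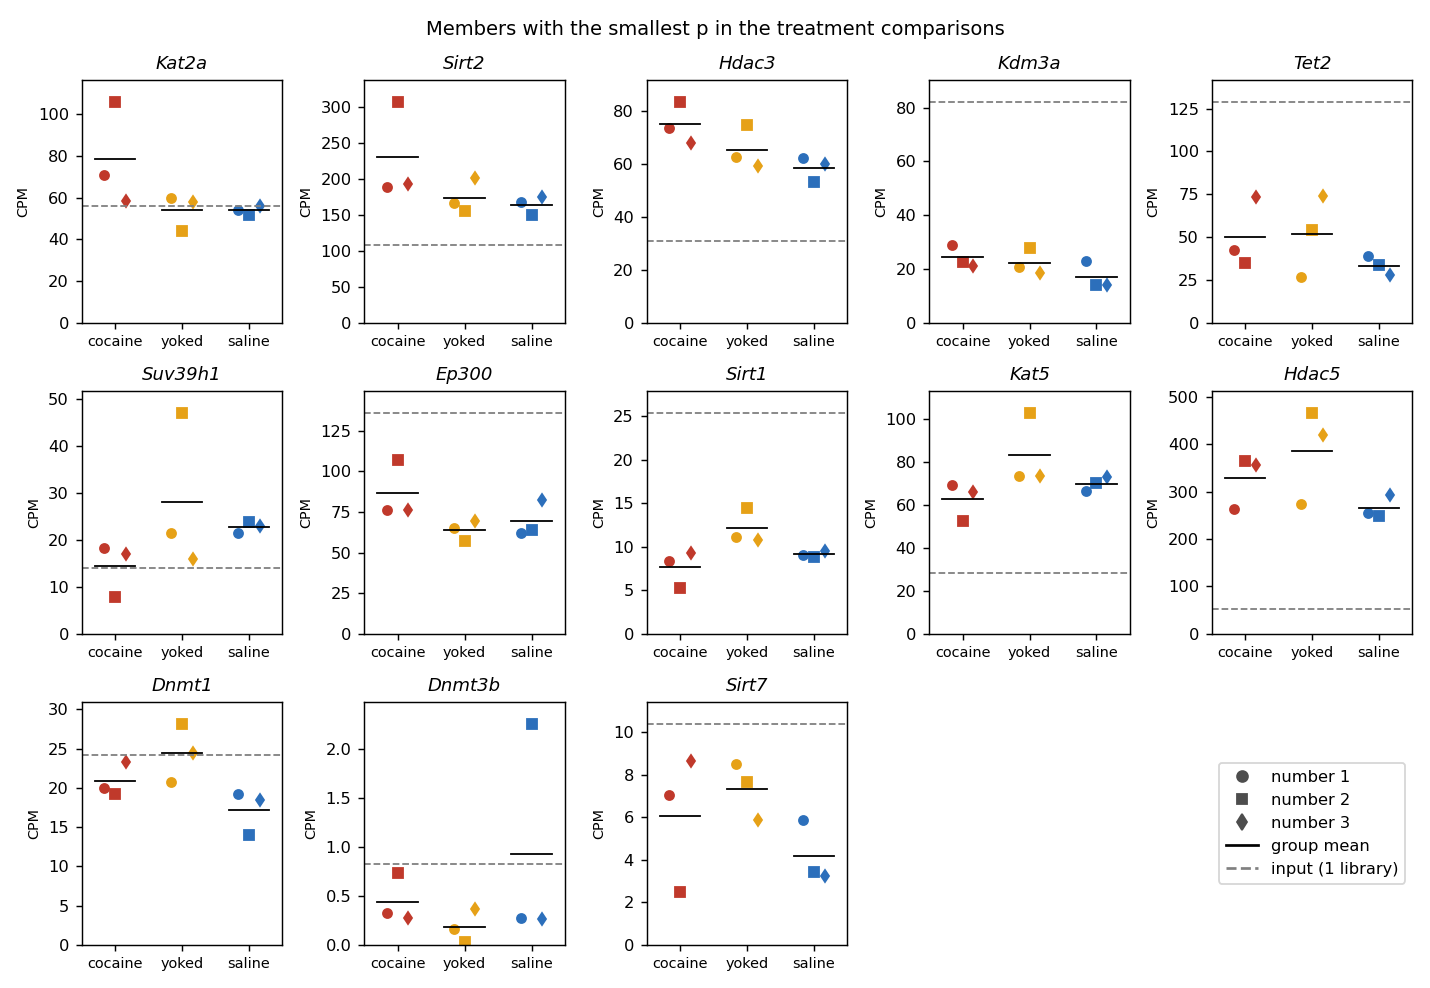
CPM (y axis, from 0) in the 3 cocaine, 3 yoked and 3 saline libraries for the enzymes with the smallest p in each treatment comparison; marker shapes give the library number, black bars group means and dashed lines the input. Kat2a, Sirt2 and Ep300 are highest in cocaine library 2, and Suv39h1, Sirt1 and Kat5 are highest in yoked library 2 and lowest in cocaine library 2.

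Cocaine self-administration was next compared with the yoked controls, which shared lane 4. Again 0 of 47 were called (background 0%; smallest adjusted p = 0.99975, edgeR), and DESeq2 and limma voom called 0. An unadjusted p under 0.05 was found for 5 enzymes (background 2.61%), of which Kat2a and Ep300 were higher with cocaine (background 1.63%) and Suv39h1, Sirt1 and Kat5 lower (background 0.974%). Without the number 2 libraries the count was 0, and it was also 0 in limma voom with quality weights. The fit without number 2 has fewer libraries a group, so fewer small p-values would be found in any case. The share of all genes is not given for these fits, so the counts do not show what number 2 contributed.

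Suv39h1 (chromosome X, 8061171 to 8074760), which trimethylates H3K9 in heterochromatin, measured 18.3, 7.72 and 16.9 CPM in cocaine libraries, against 21.5, 46.96 and 15.9 CPM in yoked libraries. Its log2 fold change was −0.94 ± 0.36 (adjusted p = 0.99975, edgeR), and −0.11 without number 2, where the library pairs numbered 1 and 3 differed by −0.23 and 0.09. Kat2a measured 71.0, 106 and 58.3 CPM with cocaine, against 60.003, 44.2 and 58.0 CPM in yoked controls. The fold change was 0.58 ± 0.23, and 0.11 without number 2. Ep300 measured 76.1, 107 and 76.4 CPM with cocaine, against 65.2, 57.3 and 69.5 CPM in yoked controls. These groups did not overlap, and the fold change was 0.47 ± 0.20, or 0.15 without number 2.

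Sirt1 measured 8.399, 5.25 and 9.26 CPM in cocaine libraries, against 11.2, 14.4 and 10.7 CPM in yoked libraries. The groups did not overlap, and the log2 fold change was −0.64 ± 0.29 and −0.34 without number 2. Kat5 measured 69.3, 52.4 and 65.8 CPM with cocaine, against 73.3, 103 and 73.4 CPM in yoked controls, also without overlap. Its fold change was −0.37 ± 0.17, and −0.14 without number 2. All 5 enzymes thus lay over 1.5 times closer to 0 once the number 2 libraries were left out. They were picked by their p with those libraries included, so some shrinkage follows from the picking. It was not compared with that of other enzymes. Groups did not overlap for 4 enzymes (background 6.78%), 2 higher with cocaine (Ep300 and Kat2b; background 3.42%) and 2 lower (Sirt1 and Kat5; background 3.37%). Of the 47 fold changes 24 were above 0 (background 50.2%), with a median of 0.00036 for the enzymes. Of all roles the acetyltransferases had the highest median, 0.46 (4 of 5 above 0), and the H3K9 methyltransferases the lowest, −0.26 (1 of 5). Without the number 2 libraries these were 0.11 (3 of 5) and 0.01 (3 of 5), so the direction of the H3K9 median rested on number 2.

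Yoked controls against saline self-administration gave no call either (0 of 47, background 0%; smallest adjusted p = 0.99928, edgeR), and DESeq2 and limma voom called 0. An unadjusted p under 0.05 was found for Hdac5 and Dnmt1, both higher in yoked controls (2 of 47, background 2.18%, with 1.38% higher and 0.801% lower). It was found for none of the 47 without the number 2 libraries, a fit with fewer libraries a group and thus less power. Hdac5 measured 274, 466 and 419.9 CPM in yoked libraries, against 255, 249.6 and 293 CPM in saline libraries. Yoked library 1 lay within the saline range, and the log2 fold change was 0.51 ± 0.20 (adjusted p = 0.99928, edgeR), or 0.35 without number 2. Dnmt1 (chromosome 9, 20907206 to 20959888) measured 20.8, 28.1 and 24.5 CPM in yoked libraries, against 19.2, 14.0 and 18.5 CPM in saline libraries, with no overlap. Its fold change was 0.48 ± 0.22, or 0.28 without number 2.

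Tet2 measured 26.4, 54.2 and 73.9 CPM in yoked libraries, against 38.7, 33.5 and 27.6 CPM in saline libraries, with yoked library 1 the lowest of the 6. Its log2 fold change was 0.61 ± 0.32, also 0.61 without number 2, and 0.23 at the lowest with 1 library left out. Sirt7 measured 8.53, 7.67 and 5.86 CPM in yoked libraries, against 5.86, 3.44 and 3.25 CPM in saline libraries, a fold change of 0.80 ± 0.44, or 0.69 without number 2. Dnmt3b had 9, 1 and 10 counts in the yoked libraries, against 7, 71 and 11 in the saline libraries. Its fold change of −2.29 ± 1.26 rests on number 2, and without those libraries the gene did not pass the filter on low counts.

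Between yoked and saline groups 6 enzymes did not overlap (background 7.05%): 5 were higher in yoked controls (Dnmt1, Sirt1, Sirt7, Kat5 and Ehmt2; background 4.3%) and Sirt6 was lower (background 2.74%). Of the 47 fold changes 30 were above 0 (background 47.9%), with a median of 0.13 for the enzymes and −0.01 for all genes. The H3K9 methyltransferases had a median of 0.27 (5 of 5 above 0) with all libraries and −0.12 (1 of 5) without number 2. The TET genes had a median of 0.34 (3 of 3 above 0) and 0.40 without number 2, but 0 of 3 were above 0 in the pair numbered 1. Medians of the other roles ran from −0.11 (H3K27 methyltransferases, 1 of 2 above 0) to 0.44 (DNA methyltransferases, 2 of 3). Each pair of these comparisons shares 3 libraries, so the same saline libraries stand behind both sets of fold changes above. In the test for any difference among the 3 groups, 0 enzymes were called (smallest adjusted p = 0.9995, edgeR), and Kat2a had an unadjusted p of 0.0360 (1 of 47, background 2.8%).

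**Figure D3:**
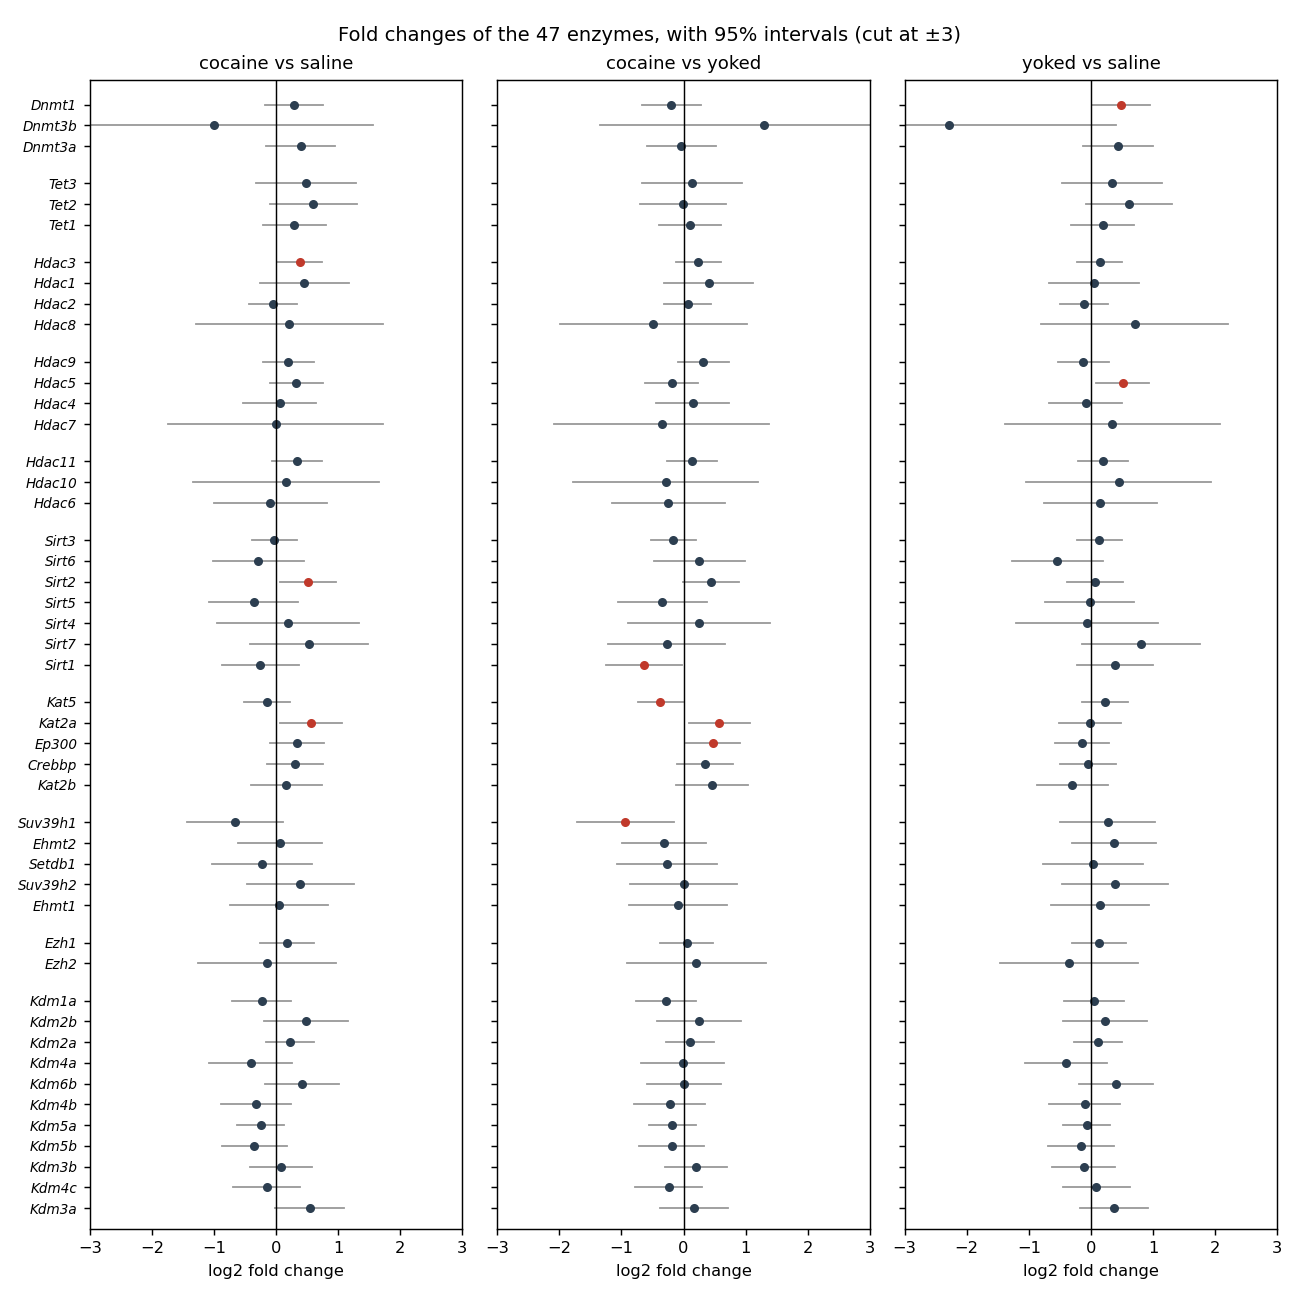
Log2 fold change (x axis) of the 47 enzymes (y axis, by role) in the 3 comparisons, from edgeR with all 9 libraries; points are estimates, lines 95% intervals cut at the axis limits of −3 and 3, and red points have an unadjusted p under 0.05. Red points number 3, 5 and 2 from left to right, and no enzyme passed after adjustment.

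The enzymes differed in how much they varied between the 9 immunopurified libraries. The highest library was a median of 2.11 times the lowest, under 2-fold for 18 enzymes and at least 3-fold for 12. The narrowest were Hdac2 (1.51-fold), Hdac3 (1.57-fold) and Hdac11 (1.59-fold). The widest were Dnmt3b (68.6-fold), Hdac7 (26.3-fold), Hdac8 (10.46-fold) and Suv39h1 (6.08-fold). Of these Hdac7 and Hdac8 were lowest in saline library 2, at 0.127 and 0.445 CPM, and Suv39h1 in cocaine library 2. Within pairs of libraries of the same number, the SD over the 47 enzymes of the cocaine to saline log2 ratio was 0.32 for number 1, 0.90 for number 2 and 0.48 for number 3. For cocaine to yoked it was 0.32, 0.89 and 0.22, and for yoked to saline 0.33, 1.08 and 0.47, in the same order of numbers.

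Tet2 and Tet3 were highest in library 3 of both the cocaine and the yoked group. Tet3 measured 50.4, 34.1 and 116 CPM in cocaine libraries 1 to 3, 35.2, 58.0 and 90.3 CPM in yoked libraries and 56.4, 46.7 and 39.9 CPM in saline libraries. Dnmt3a measured 61.7, 53.7 and 108 CPM with cocaine, 51.2, 91.7 and 91.8 CPM in yoked controls and 59.8, 64.0 and 47.2 CPM with saline. Tet1, Tet2, Tet3, Dnmt3a and the H3K27 demethylase Kdm6b were each lowest of the 3 cocaine libraries in library 2 and highest in library 3, a pattern picked out after the values were seen. The order was not particular to these genes. Enzymes of other roles shared it, among them Hdac4 (33.8, 24.6 and 40.7 CPM), Hdac6 (10.9, 5.29 and 14.2 CPM) and Ehmt2 (21.5, 9.11 and 26.7 CPM). Others did not, such as Kat2a (71.0, 106 and 58.3 CPM). The share of reads outside annotated genes in libraries 1 to 3 was 8.20%, 7.04% and 9.55% with cocaine, 7.58%, 11.2% and 9.32% in yoked controls and 7.56%, 9.39% and 7.48% with saline. Its part in these levels was not tested.

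**Figure D4:**
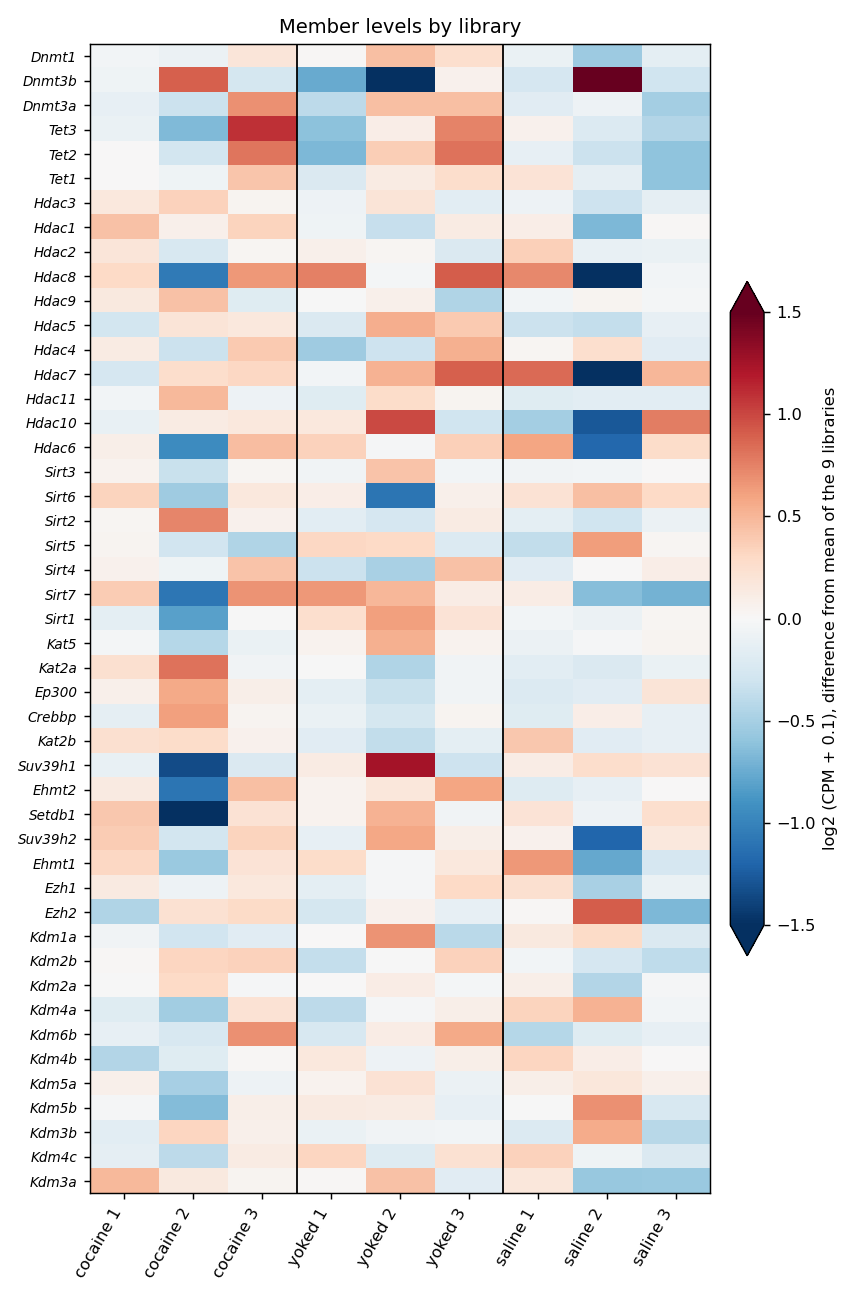
Level of each enzyme (rows, by role) in each immunopurified library (columns) as log2 (CPM + 0.1) minus the mean of the 9 libraries; red is higher and blue lower, with full colour at 1.5. The columns of the number 2 libraries hold the strongest colours, and Tet2, Tet3 and Dnmt3a are red in library 3 of the cocaine and yoked groups.

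A further 96 chromatin genes, partners and other writers and erasers of the same marks, were listed for comparison, of which 95 were tested and 93 measured against the input. None of the 95 was called in any treatment comparison (edgeR, DESeq2 and limma voom were run over all genes and called 0). An unadjusted p under 0.05 was found for 4 between cocaine and saline (background 5.28%), 2 between cocaine and yoked (background 2.61%) and 3 between yoked and saline (background 2.18%). Idh1, which makes the 2-oxoglutarate that TET enzymes and most demethylases need, averaged 34.2 ± 7.53 CPM with cocaine and 50.0 ± 5.72 CPM with saline (log2 fold change −0.54 ± 0.19, or −0.29 without number 2). The acetyltransferase Kat6b averaged 37.5 ± 7.79 CPM with cocaine and 25.6 ± 4.55 CPM with saline, with a fold change of 0.58, or 0.23 without number 2. Kdm1b, an H3K4 demethylase, averaged 4.19 ± 0.75 CPM with cocaine and 8.92 ± 3.77 CPM in yoked controls, and the coactivator Ncoa2 283 ± 107 CPM with cocaine and 209 ± 26.96 CPM in yoked controls. Their fold changes were −1.04 and 0.49, or −0.63 and 0.17 without number 2. The H3K4 methyltransferase Kmt2b measured 29.8, 39.2 and 25.9 CPM in yoked libraries, against 23.0, 13.4 and 20.5 CPM in saline libraries, without overlap (log2 fold change 0.71 ± 0.24, or 0.37 without number 2). Gadd45b, linked to active demethylation in neurons, averaged 2.76 ± 1.21 CPM in yoked controls and 6.62 ± 4.59 CPM with saline, and Kmt2d 127 ± 6.67 CPM in yoked controls and 99.2 ± 3.56 CPM with saline. Their fold changes were −1.25 and 0.34, or −0.21 and 0.36 without number 2.

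Of these 93 genes, 6 exceeded the input by 2-fold or more in each saline library (6.45%, background 12.2%) and 13 fell below it by as much (14.0%, background 23.1%), with a median log2 ratio of −0.43 ± 0.02. The ends of that range, named after their values were seen, were Smyd2 and Kat6b. Smyd2, a lysine methyltransferase, averaged 89.7 ± 22.2 CPM in saline libraries, against 14.9 CPM in the input. Kat6b averaged 25.6 ± 4.55 CPM, against 114 CPM in the input. Of the 47 enzymes 27 overlap another annotated gene, 8 of them a protein-coding one, and 4 (Dnmt3a, Dnmt3b, Kat2b and Hdac1) have a pseudogene named after them, so reads may be shared there. No transcript lengths were at hand, so levels are compared within a gene and not between genes.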

How the data were processed

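RNA bound to tagged polysomes of the striatum was sequenced, per the labels' protocols. The authors deposited a table of raw counts for each library, with reads summed by gene symbol. The submitters' processing notes name STAR 2.0.0e, HTSeq without a version and the build mm10; the annotation and strand setting are not given in the sources used here. Rows of unassigned reads stayed out of library sizes (7.04% to 15.2% of reads outside genes).

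Treatment groups were compared in R 4.3.3 with edgeR 4.0.16 (robust quasi-likelihood F-test, TMM scaling, minimum count 10, minimum total 15, 1 fit over the 9 immunopurified libraries with 6 residual degrees of freedom, Benjamini-Hochberg adjustment over 14989 genes). DESeq2 1.42.0 and limma 3.58.1 served as alternatives. The edgeR step was tested on simulated counts drawn independently for each library. That test does not cover structure shared by libraries of the same number. Levels are CPM by the sum of gene counts; counting intervals are exact Poisson intervals at 95% and cover counting error only. Ratios to the input used genes with at least 20 counts in the input or in the mean saline library.

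The labels do not say what a shared replicate number stands for. Deviations of same-numbered libraries from their group means correlated at 0.29, 0.20 and 0.18 between yoked and saline, each over 0.1, which meets the rule for pairing; between cocaine and the other groups 3 of the 6 correlations were under 0.1. The fit has no term for replicate number. Its fold changes, SEs, intervals and unadjusted p-values per enzyme thus ignore any pairing, also between yoked and saline. The block was run as an alternative and changed no call, which says little since neither fit called any gene.

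Values per library are given for the 5 enzymes with the smallest p in each comparison, or all with an unadjusted p under 0.05 where there are more, the 5 highest and 5 lowest ratios to the input among those with at least 100 counts, and the most counted enzyme of each role. The members, the gene lists and this rule were chosen with earlier results of these data known. Coordinates and promoters are from RefSeq (GRCm38.p6, the same assembly as mm10).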

Additional observations from a re-analysis of the deposited data

How the results depend on the processing

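No treatment fold change of the enzymes with the smallest p in their comparison turned direction under any alternative run. Against the input, Dnmt3b (−0.61) was at 0.25, Kat2a (−0.05) at 0.06, Hdac6 (−0.025) at 0.28 and Sirt4 (−0.0046) at 0.11 in an edgeR fit. Relative to the median of all genes Kat2a was at 0.12, Hdac6 at 0.15 and Sirt4 at 0.17. The count of called enzymes was 0 in every treatment comparison under all of them. Over all genes, dropping the filter on low counts gave 60 edgeR calls between cocaine and saline, 27 between cocaine and yoked, 18 between yoked and saline and 98 for any difference; the cause was not tested. With replicate number as a block, 0 genes and 0 enzymes were called in each comparison, and the enzymes' medians were 0.181, −0.0019 and 0.133 in the same order. The block without the number 2 libraries called 1, 1, 1 and 2 genes, none of them among the 47. With 1 library left out, the enzymes' median log2 fold change ran from 0.052 (without cocaine library 3) to 0.24 between cocaine and saline and from −0.197 (without cocaine library 3) to 0.105 (without cocaine library 2) between cocaine and yoked, where it was −0.122 without yoked library 1. Between yoked and saline it ran from 0.064 (without saline library 2) to 0.183 (without saline library 1). Against the input the enzymes' median was −0.450 with TMM, −0.387 relative to the median of all genes (6 enzymes lower), −0.452 with all 9 libraries (3 higher, 6 lower) and −0.305 in an edgeR fit that lends the input the spread of the other libraries. With 3 libraries a group, intervals of about 0.57 on the log2 scale to each side, before any adjustment for many genes, limit what could be seen.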
